A study of Homo sapiens with 6 samples.

Results

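The genes described are 40 regulators of mitosis and of the spindle checkpoint, out of 29489 genes for which poly(A) RNA was sequenced. The cells were SU-DHL-4, a cell line long kept in culture that came from a human diffuse large B-cell lymphoma. They were chosen by gene name from a list that holds the cyclins and kinases of mitotic entry, the checkpoint, the passenger complex, the NDC80 complex, the anaphase machinery and proteins of the spindle and of cytokinesis, with kinesins and centromere and centrosome genes left out. All 40 were found in the table, each once. The 2 groups were SU-DHL-4 cells labelled KD and SU-DHL-4 cells labelled CON, with 3 samples each. The labels name no gene for KD, and they give no vector, time, dose or clone. The series is concerned with ZHX2, a nuclear protein with zinc fingers and homeodomains, and its aim was to find enriched pathways.

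A dividing cell enters mitosis when CDK1, bound to cyclin B and activated by CDC25 phosphatases, phosphorylates a wide range of proteins. The spindle checkpoint then holds the anaphase-promoting complex, a ubiquitin ligase, in check until each kinetochore is attached to microtubules. Release of CDC20 lets that ligase destroy cyclin B and securin, and separase cuts the cohesin that joins sister chromatids. Transcripts of most of these genes accumulate in G2 and mitosis, and many of their promoters carry a cell cycle gene homology region (CHR), the docking site of the MuvB complex, with CCAAT boxes bound by NF-Y upstream of it. Germinal centre B cells, the cells that this lymphoma resembles, are among the fastest dividing human cells.

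The values are the authors' FPKM, a level scaled to transcript length and to the fragments of a library, and they do not give the sequencing depth. Replicate 1 of each group was not an independent measurement. In KD, replicate 1 equalled the mean of replicates 2 and 3 divided by 1.2 in 29489 of 29489 genes. In CON, replicate 1 equalled the mean of replicates 2 and 3 divided by 1.1 in 29488 of 29489 genes, the exception being ZHX2 (relative tolerance 1e-09). Replicates 2 and 3 of each group were therefore compared, 4 libraries in all (n = 2 each). The labels do not say whether these are separate cultures, and a p-value here therefore covers the difference between these 2 libraries of a group, possibly a technical one. ZHX2 stood at 10.96 and 11.04 FPKM in KD and at 38.54 and 36.69 FPKM in CON, but its row in the authors' deposited table has a negative linear fold change and departs from the rule of the other rows, so it was not used to check the labels. All 10 B cell markers were present, summing to 1068 and 1085 FPKM in KD and to 1322 and 1335 FPKM in CON. Myeloid markers, 5 of 8 in the table, each stayed under 1 FPKM and summed to 0.671 and 0.647 FPKM in KD and to 0.119 and 0.125 FPKM in CON. T and NK cell markers, 5 of 8 in the table, summed to 1.06 and 0.945 FPKM in KD and to 1.34 and 1.84 FPKM in CON. Epithelial and fibroblast markers, 3 of 8 in the table, summed to 4.52 and 4.44 FPKM in KD and to 4.55 and 5.04 FPKM in CON. Of these, 1 marker of T and NK cells and 2 of the last list reached 1 FPKM in at least 1 library, and their part in the results below was not tested.

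To show the sequences that these genes share, 6 stretches of promoter are printed, a pair each from genes that were higher in KD, did not pass the test, or were lower in KD. They end 10 bases after the RefSeq transcription start (GRCh38.p14), 5′ to 3′ on the strand of the gene, and capitals mark the CHR, searched as TTTGAA, and the CCAAT box, searched as CCAAT, each on both strands. CCNB2 lies at chr15:59105001-59105155 on the plus strand, ANLN at chr7:36389717-36389871 on the plus strand, PLK1 at chr16:23678744-23678898 on the plus strand, CCNB1 at chr5:69167005-69167159 on the plus strand, HMMR at chr5:163460487-163460641 on the plus strand and SPC25 at chr2:168890421-168890575 on the minus strand.
CCNB2: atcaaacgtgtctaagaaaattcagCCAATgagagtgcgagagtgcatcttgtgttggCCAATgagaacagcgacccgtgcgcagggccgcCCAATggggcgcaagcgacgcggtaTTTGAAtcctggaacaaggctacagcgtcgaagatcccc
ANLN: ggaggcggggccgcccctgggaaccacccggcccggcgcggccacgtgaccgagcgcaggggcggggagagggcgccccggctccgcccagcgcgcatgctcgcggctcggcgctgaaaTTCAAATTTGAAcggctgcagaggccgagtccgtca
PLK1: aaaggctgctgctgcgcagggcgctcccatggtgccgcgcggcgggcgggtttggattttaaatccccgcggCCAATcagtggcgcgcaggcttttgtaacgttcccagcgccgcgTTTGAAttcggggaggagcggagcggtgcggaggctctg
CCNB1: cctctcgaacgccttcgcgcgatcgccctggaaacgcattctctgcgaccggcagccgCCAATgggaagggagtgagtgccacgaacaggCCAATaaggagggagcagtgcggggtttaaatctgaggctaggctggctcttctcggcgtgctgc
HMMR: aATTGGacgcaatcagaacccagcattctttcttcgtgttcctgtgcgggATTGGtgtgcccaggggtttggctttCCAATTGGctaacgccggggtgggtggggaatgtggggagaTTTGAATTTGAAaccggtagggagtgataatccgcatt
SPC25: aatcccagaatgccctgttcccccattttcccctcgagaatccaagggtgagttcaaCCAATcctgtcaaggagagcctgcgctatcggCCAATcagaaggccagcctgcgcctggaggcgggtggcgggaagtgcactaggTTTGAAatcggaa

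In CCNB2 and PLK1 the CHR match began at position -29, counted with the first transcribed base as 1 and no base 0, and in HMMR a pair of matches began at positions -28 and -22. CCNB2 rose in KD, PLK1 did not pass the test and HMMR fell, so the same letters at nearly the same place stood before genes of each kind. CCNB1 had no TTTGAA in its window, which says only that these letters are not there.

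Of the 40 genes, 34 matched a RefSeq promoter window of 300 bases (250 before to 50 after the start), by symbol. A CHR match was found in at least 1 window of 24 of them (70.6%), against 13.1% of 8425 tested genes and 18.2% of all 27305 genes with a window. A CCAAT match was found in 29 (85.3%), against 44.6% of the tested genes and 39.7% of all. Both were present in 19 genes (55.9%), against 5.63% of the tested genes. Counted by window, 57.4% of 47 member windows and 15.2% of all 35116 windows held the CHR match, and 74.5% and 34.6% held CCAAT. The CHR match was present in 13 of 19 matched genes that were higher in KD, in 5 of 6 that were lower and in 6 of 9 that did not pass. The 38 CHR matches had a median position of -27, and 27 of them began within 50 bases of the start. The 70 CCAAT matches had a median position of -82. Some genes have windows that overlap, so the same site can count more than once, and 2 pairs of a CHR and a CCAAT match shared bases. These shares describe letters, not bound sites.

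**Figure D1:**
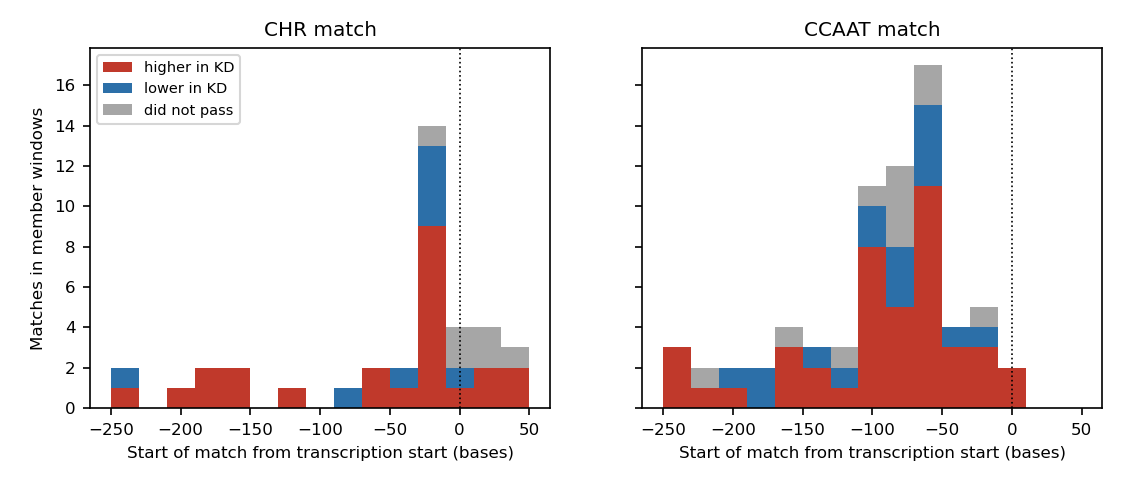
Positions of CHR matches (left) and CCAAT matches (right) in the RefSeq windows of 34 matched mitotic genes, in bins of bases from the transcription start (x axis), with the number of matches on the y axis and colours for genes higher in KD, lower in KD or not passing the test. Over all matched genes the CHR matches have a median position of -27, with some far upstream and some after the start, and the CCAAT matches have a median of -82. No difference between the 3 kinds of gene was tested.

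As a group the mitotic genes leaned upward in KD, but they did not move as one block. Of the 40, 21 were higher in KD (52.5%), against 27.6% of all 11916 tested genes, and 7 were lower (17.5%), against 31.1% of all tested genes. The other 12 did not pass the test (limma on log2(FPKM + 1), Benjamini-Hochberg adjusted p of 0.05 over all tested genes). Calls in either direction made up 70.0% of the members and 58.6% of all tested genes. Among the 6983 tested genes at a mean of 5 FPKM or more, which include all members, 32.0% were higher and 34.5% lower. Calls made up 66.5% of these, so the members' share of calls lay near that of genes at such levels. The median log2 change was 0.13 over the members and -0.02 over all tested genes. Each member passed the filter of 1 FPKM in at least 2 libraries, and none was under 6.11 FPKM in any library. Changes spanned -0.57 (HMMR) to 0.95 (SGO2) on the log2 scale, so no member changed by much more than 2-fold. In bulk RNA, a larger share of cells in G2 and mitosis and more RNA per such cell cannot be told apart.

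Summed over the members, FPKM came to 1816 and 1797 in KD and to 1536 and 1544 in CON, or 0.665% and 0.657% of the library total in KD and 0.573% and 0.577% in CON. Both KD sums lay above both CON sums. In 24 members both KD libraries lay above both CON libraries, against 38.8% of all tested genes, and in 12 both lay below, against 42.9% of all tested genes. Groups were apart in either direction in 81.6% of all tested genes. The members overlapping between groups were CCNA2, PLK1, NDC80 and NUF2. With 2 libraries against 2, an exact permutation test of a single gene cannot go below p = 0.33 (two-sided), so the calls rest on the spread shared across genes in limma. Replicates lay close together, with a median coefficient of variation over the members of 2.20% in KD and 1.81% in CON, and the widest spread in SPC24 (9.66% in KD and 8.28% in CON). Genes with a mitochondrial (MT-) name took 29.9% and 30.3% of the library total in KD and 25.9% and 25.6% in CON, and scaling without them and the 10 most abundant genes gave 23 higher and 6 lower members.

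**Figure D2:**
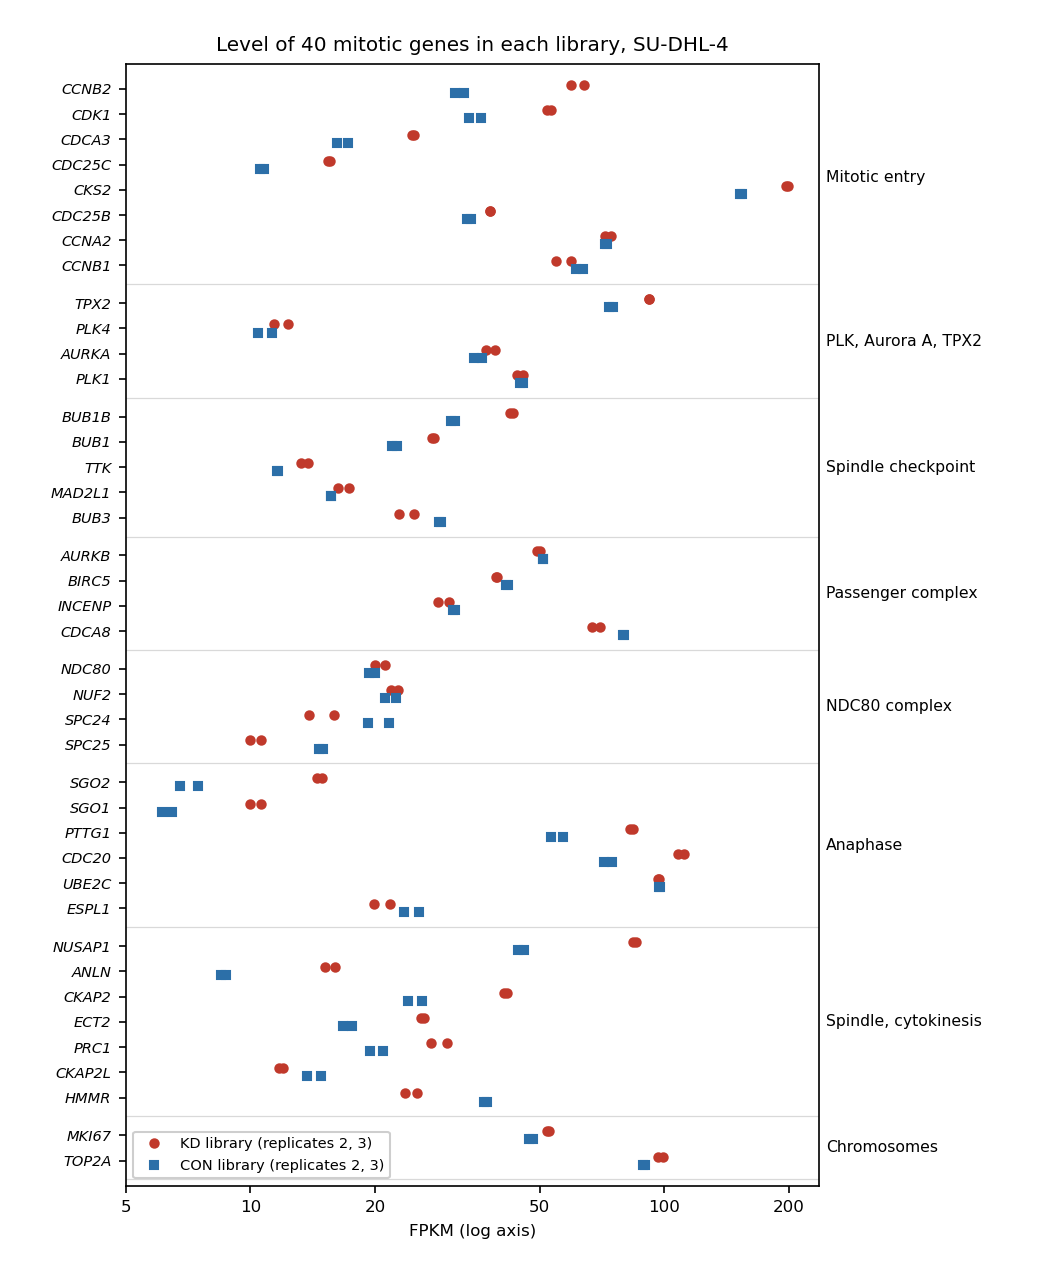
FPKM of each of the 40 genes (log x axis) in the KD libraries (circles) and CON libraries (squares), replicates 2 and 3, with genes grouped by role down the y axis. Levels ran from about 6 FPKM (SGO1 in CON) to 199 FPKM (CKS2 in KD), and in CCNB2, NUSAP1, SGO2 and ANLN the KD points stand well apart above the CON points.

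CKS2, the small subunit that tethers CDK1 to phosphorylated substrates, was the most abundant transcript per length in both groups, at 199 and 197 FPKM in KD and 153 and 155 FPKM in CON. SGO1 was the least abundant in both. The order of levels moved for some members. CCNB2 ranked 10 in KD and 19 in CON, and HMMR ranked 26 in KD and 15 in CON.

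Genes of mitotic entry mostly rose, and the B-type cyclins parted. Of 8 members, 6 were higher in KD and 0 were lower, against 27.6% and 31.1% of all tested genes. CCNB2 (ENSG00000157456, GENCODE 29 on GRCh38, chromosome 15, 59105078 to 59125045), which encodes cyclin B2, stood at 64.0 and 59.7 FPKM in KD and at 32.8 and 31.2 FPKM in CON. Both KD libraries had nearly double the CON level, a 1.93-fold ratio of means. On the log2(FPKM + 1) scale it rose by 0.93 (SE 0.0472, limma adjusted p = 2.51e-04). CCNB1 (ENSG00000134057, chromosome 5, 69167010 to 69178245), which encodes cyclin B1, the main mitotic partner of CDK1, stood at 59.5 and 55.0 FPKM in KD and at 63.7 and 61.2 FPKM in CON. Its KD libraries lay slightly below the CON libraries, with a log2 change of -0.13 (95% interval -0.25 to -0.0035), which did not pass (limma adjusted p = 0.0725). With the replicate number as a block, CCNB1 passed as lower (limma adjusted p = 0.0333). It also passed without KD replicate 2 (0.0245), and its adjusted p ranged from 0.0245 to 0.253 over all alternatives. The ratio of CCNB2 to CCNB1 FPKM was 1.08 and 1.09 in KD and 0.516 and 0.509 in CON, so cyclin B2 RNA reached the level of cyclin B1 RNA in KD and was well under it in CON.

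CDK1, the kinase itself, stood at 52.1 and 53.3 FPKM in KD and at 36.0 and 33.8 FPKM in CON (log2 change 0.58, SE 0.0411, limma adjusted p = 5.54e-04). CDC25C, a phosphatase that activates CDK1, stood at 15.4 and 15.5 FPKM in KD and at 10.5 and 10.8 FPKM in CON (log2 change 0.50). In both genes the groups did not overlap. The coefficient of variation of CDK1 was 1.69% in KD and 4.6% in CON. CDC25C shares 293 exonic bases with FAM53C on the opposite strand. FAM53C stood at 49.6 and 48.2 FPKM in KD and at 15.2 and 15.5 FPKM in CON, and since the strand setting of the counting is not given, the CDC25C value is uncertain. CDC25B, the phosphatase thought to act first in G2, rose less, to 37.9 and 38.0 FPKM in KD, against 34.1 and 33.5 FPKM in CON (log2 change 0.16). Its call was lost without CON replicate 3 (log2 change 0.149). Over all alternatives its limma adjusted p ranged from 0.00345 to 0.385, the high end from the fit of all 6 columns, where replicate 1 is not independent. CDCA3, a cell cycle protein that takes part in mitotic entry, rose by 0.54 and CKS2 by 0.36 on the log2 scale. CCNA2, the cyclin of S phase and G2, stood at 74.3 and 71.9 FPKM in KD and at 72.0 and 72.7 FPKM in CON. Its groups overlapped, and the 95% interval of its log2 change ran from -0.06 to 0.09.

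**Figure D3:**
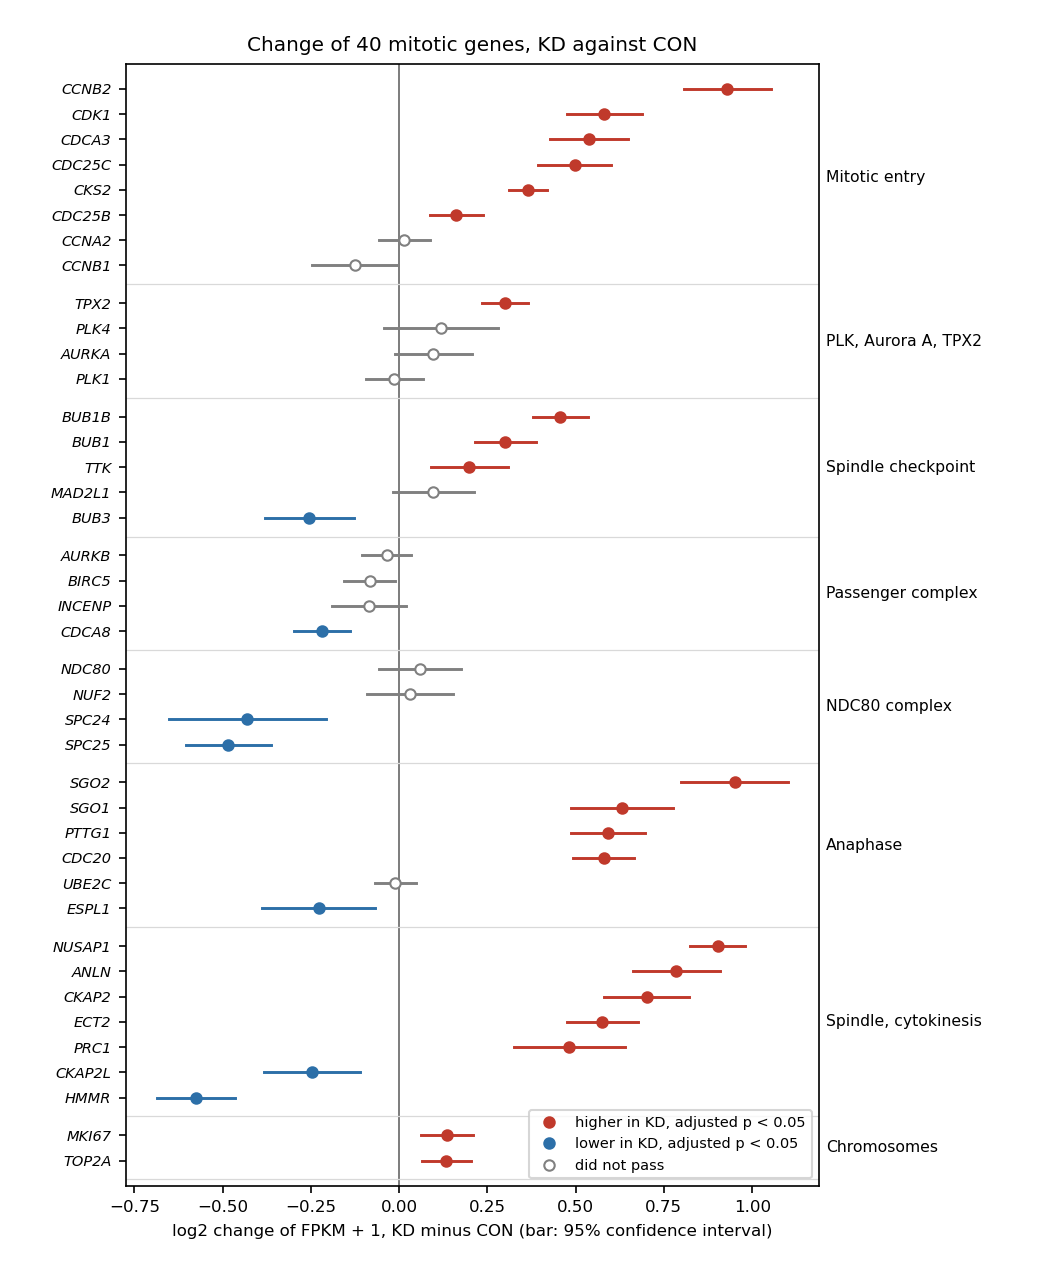
Log2 change of FPKM + 1, KD minus CON (x axis), for the 40 genes grouped by role down the y axis, with points for the estimate, bars for the 95% confidence interval and colours for genes that passed as higher or lower. The 21 higher and 7 lower genes run from SGO2 at 0.95 to HMMR at -0.57. No gene of the passenger or NDC80 complexes passed as higher. None passed as lower in mitotic entry, in the kinases with TPX2 or in mitotic chromosomes.

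Among the Polo-like and Aurora A kinases and TPX2, TPX2 rose and the kinases did not pass. TPX2, the microtubule protein that activates Aurora A, stood at 91.8 and 92.1 FPKM in KD and at 75.3 and 73.7 FPKM in CON (log2 change 0.30, SE 0.0248, limma adjusted p = 8.45e-04). AURKA stood at 39.1 and 37.1 FPKM in KD and at 34.8 and 36.3 FPKM in CON (log2 change 0.10, limma adjusted p = 0.102). PLK1, which drives mitotic entry and spindle assembly, stood at 44.1 and 45.5 FPKM in KD and at 44.9 and 45.7 FPKM in CON, with overlapping groups and a 95% interval of the log2 change from -0.09 to 0.07. PLK4, the kinase of centriole duplication, had a log2 change of 0.12 (95% interval -0.04 to 0.28). The direction of PLK1 turned to positive in 3 scaling alternatives, and AURKA passed in 2 of them.

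The spindle checkpoint genes went both ways. BUB1B, which encodes BUBR1, part of the complex that holds CDC20, stood at 43.1 and 42.5 FPKM in KD and at 30.6 and 31.2 FPKM in CON (log2 change 0.46, SE 0.0301, limma adjusted p = 4.66e-04). BUB1, the kinase that marks centromeric chromatin, stood at 27.8 and 27.5 FPKM in KD and at 22.0 and 22.6 FPKM in CON (log2 change 0.30). TTK, the kinase MPS1 that starts checkpoint signalling, rose by 0.20 on the log2 scale, a call that was lost without CON replicate 2, CON replicate 3 or KD replicate 3. Over all alternatives the limma adjusted p of TTK ranged from 0.00664 to 0.229, the high end from the fit of all 6 columns, where replicate 1 is not independent. BUB3, the adaptor that brings BUB1 and BUBR1 to kinetochores, went the other way. It stood at 22.9 and 24.9 FPKM in KD and at 28.9 and 28.5 FPKM in CON (log2 change -0.25, SE 0.0484, limma adjusted p = 0.00983). MAD2L1, which encodes the checkpoint protein MAD2, stood at 17.3 and 16.3 FPKM in KD and at 15.7 and 15.6 FPKM in CON and did not pass (limma adjusted p = 0.117). The BUB1B to BUB3 ratio was 1.88 and 1.71 in KD and 1.06 and 1.1 in CON, higher in both KD libraries.

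All 4 genes of the chromosomal passenger complex, which corrects faulty attachments and guides cytokinesis, had lower values in both KD libraries than in both CON libraries, as had 42.9% of all tested genes, and 1 of the 4 passed. CDCA8, which encodes borealin, stood at 69.9 and 67.0 FPKM in KD and at 79.9 and 79.6 FPKM in CON (log2 change -0.22, SE 0.0304, limma adjusted p = 0.00366). AURKB, the kinase of the complex, had a log2 change of -0.04, and its scaffold INCENP one of -0.08. BIRC5, which encodes survivin, stood just outside the threshold, at 39.2 and 39.4 FPKM in KD and at 41.4 and 42.0 FPKM in CON (log2 change -0.08, limma adjusted p = 0.0545). ESPL1, with an adjusted p of 0.0290 in limma, stood just inside it. The sign of AURKB turned to positive under quantile scaling and under scaling without MT- and the 10 most abundant genes.

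The NDC80 complex, the rod by which kinetochores hold microtubules, split by subunit. SPC25 (ENSG00000152253, chromosome 2, 168834132 to 168913371) stood at 10.6 and 10 FPKM in KD and at 14.6 and 15.0 FPKM in CON (log2 change -0.48, SE 0.0466, limma adjusted p = 0.00129). SPC24, its partner at the kinetochore end of the rod, stood at 15.9 and 13.9 FPKM in KD and at 19.2 and 21.6 FPKM in CON (log2 change -0.43, SE 0.0860, limma adjusted p = 0.0115). Both fell, SPC24 with the widest spread of all members, and the SPC24 call was lost with no filter on low values (limma adjusted p = 0.0665, within a range of 0.000156 to 0.0665 over all alternatives). The low end of that range came from the fit of all 6 columns, where replicate 1 is not an independent measurement. NDC80, the subunit that binds microtubules, stood at 21.17 and 19.95 FPKM in KD and at 19.37 and 20 FPKM in CON, and its partner NUF2 at 21.8 and 22.8 FPKM in KD and at 22.5 and 21.1 FPKM in CON. Neither passed, and both had overlapping groups, with 95% intervals of the log2 change from -0.06 to 0.17 and from -0.09 to 0.15. The ratio of NDC80 to SPC25 FPKM was 2 and 1.99 in KD and 1.32 and 1.34 in CON.

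**Figure D4:**
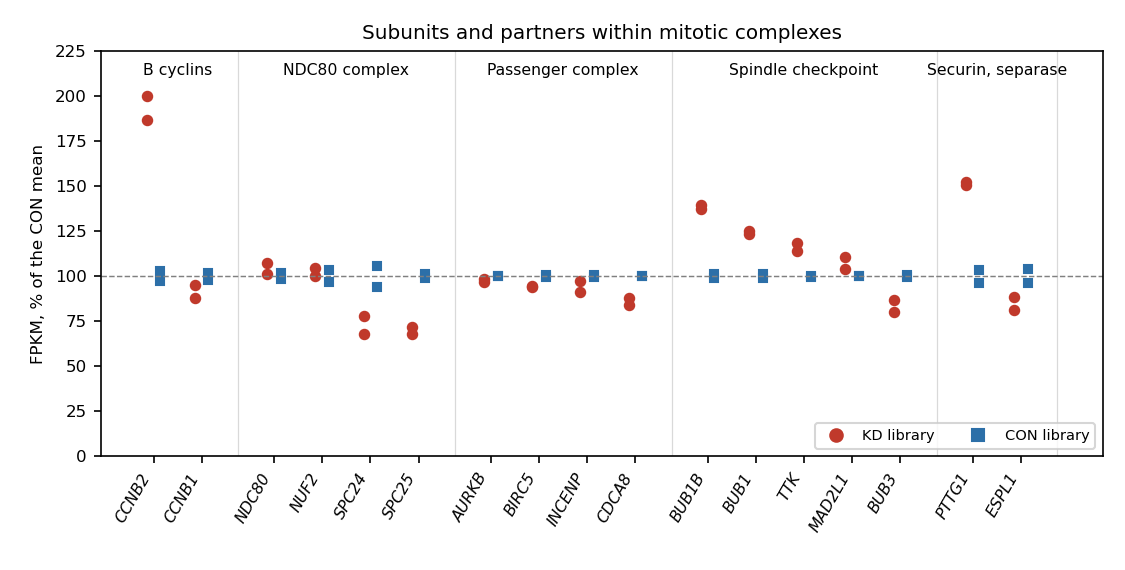
FPKM of selected genes in each KD library (circles) and CON library (squares) as a percent of the CON mean (y axis), for the B cyclins, the NDC80 complex, the passenger complex, the checkpoint, and securin and separase. CCNB2 and PTTG1 lie above 100 in KD while CCNB1 and ESPL1 lie below it, and SPC24 and SPC25 lie below 100 while NDC80 and NUF2 stay near it.

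Genes of anaphase included the largest rise. SGO2 (ENSG00000163535, chromosome 2, 200510008 to 200583782), a shugoshin that protects centromeric cohesin, stood at 14.9 and 14.5 FPKM in KD and at 6.77 and 7.46 FPKM in CON. The ratio of means was 2.06 and the log2 change 0.95 (SE 0.0580, limma adjusted p = 3.91e-04). Its paralogue SGO1 stood at 9.95 and 10.6 FPKM in KD and at 6.44 and 6.11 FPKM in CON (log2 change 0.63). CDC20, the activator of the anaphase-promoting complex that the checkpoint restrains, stood at 112 and 108 FPKM in KD and at 71.6 and 74.9 FPKM in CON (log2 change 0.58, SE 0.0335, limma adjusted p = 3.49e-04). PTTG1, which encodes securin, the inhibitor of separase, stood at 82.9 and 84.0 FPKM in KD and at 53.2 and 57.1 FPKM in CON (log2 change 0.59). ESPL1, separase itself, fell to 21.7 and 19.9 FPKM in KD, against 23.6 and 25.5 FPKM in CON (log2 change -0.23, SE 0.0616). The PTTG1 to ESPL1 ratio was 3.82 and 4.22 in KD and 2.26 and 2.24 in CON. The ESPL1 call was lost without CON replicate 3 (limma adjusted p = 0.108), without KD replicate 3 (0.0943), with no filter on low values (0.11), with no mean-variance trend (0.0571) and under scaling without MT- and the 10 most abundant genes (0.0593), and over all alternatives its adjusted p ranged from 0.0203 to 0.11. UBE2C, the ubiquitin-conjugating enzyme of the anaphase-promoting complex, stood at 96.5 and 97.2 FPKM in KD and at 97.8 and 97.4 FPKM in CON, a log2 change of -0.01 with a 95% interval from -0.07 to 0.05.

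Spindle and cytokinesis genes all passed, 5 of 7 higher (71.4%, against 27.6% of all tested genes) and 2 lower (28.6%, near the 31.1% of all tested genes). NUSAP1 (ENSG00000137804, chromosome 15, 41332694 to 41381050), which bundles spindle microtubules, stood at 85.8 and 84.2 FPKM in KD and at 45.8 and 44.3 FPKM in CON (log2 change 0.90, SE 0.0300, limma adjusted p = 9.08e-05). ANLN, the scaffold of the contractile ring, stood at 15.1 and 16.0 FPKM in KD and at 8.71 and 8.49 FPKM in CON (log2 change 0.79). CKAP2, a spindle microtubule protein, rose by 0.70 and ECT2, the exchange factor that turns on RhoA at the cell equator, by 0.58. HMMR (ENSG00000072571, chromosome 5, 163460203 to 163491945), a spindle protein that is also a hyaluronan receptor, fell most of all members. It stood at 23.7 and 25.3 FPKM in KD and at 36.7 and 37.3 FPKM in CON (log2 change -0.57, SE 0.0424, limma adjusted p = 6.18e-04). CKAP2L, a relative of CKAP2, stood at 11.7 and 12.0 FPKM in KD and at 13.7 and 14.8 FPKM in CON (log2 change -0.25, SE 0.0520). The CKAP2L call was lost without CON replicate 3 (limma adjusted p = 0.0616), without KD replicate 2 (0.0516) and with no filter on low values (0.0518), within a range of 0.00922 to 0.0616 over all alternatives.

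PRC1, which crosslinks the central spindle, stood at 29.9 and 27.3 FPKM in KD and at 20.9 and 19.4 FPKM in CON (log2 change 0.48, SE 0.0609, limma adjusted p = 0.00276). This rise is uncertain, because a second gene on the same strand, ENSG00000284946, shares 3181 bases, or 57.6%, of the PRC1 exons in GENCODE 29. That gene moved the opposite way, at 9.28 and 12.5 FPKM in KD and 17.5 and 18.8 FPKM in CON (log2 change -0.70, limma adjusted p = 0.0107). Added together, the pair stood at 39.2 and 39.8 FPKM in KD and at 38.4 and 38.2 FPKM in CON, and a fit of the sum gave a log2 change of 0.04 that did not pass (limma adjusted p = 0.245). Without PRC1, 20 members were higher in KD. NUSAP1 shares 1787 exonic bases with ENSG00000285920, but that gene was listed at 0 in 3 libraries and at 0.545 FPKM in KD replicate 3. Among 8 pseudogenes named after members, UBE2CP2 was the only one over 1 FPKM, at 0.563 and 0.468 FPKM in KD and 1.541 and 1.498 FPKM in CON, far under UBE2C itself.

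Among genes of mitotic chromosomes, TOP2A, the topoisomerase that untangles sister chromatids, stood at 96.7 and 99.7 FPKM in KD and at 89.9 and 88.9 FPKM in CON (log2 change 0.13, SE 0.0267, limma adjusted p = 0.0115). MKI67, the Ki-67 protein used as a proliferation marker, stood at 52.7 and 52.1 FPKM in KD and at 47.1 and 48.1 FPKM in CON (log2 change 0.14, SE 0.0280, limma adjusted p = 0.0127). Both rises were small. The TOP2A call was lost without CON replicate 3 (log2 change 0.126), and the MKI67 call without CON replicate 2 (log2 change 0.121). Both calls were also lost with no mean-variance trend (limma adjusted p = 0.0656 for TOP2A and 0.0586 for MKI67). Over all alternatives the adjusted p ranged from 0.00275 to 0.525 for TOP2A and from 0.00398 to 0.511 for MKI67. Both high ends came from the fit of all 6 columns, where replicate 1 is not an independent measurement.

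Other genes of the pathway were counted the same way, beside the 27.6% higher and 31.1% lower of all tested genes. Of 20 tested spindle and midbody proteins outside the members, 17 were higher in KD (85.0%) and 0 were lower, with a median log2 change of 0.33. The beta-tubulin TUBB4B stood at 274 ± 2.97 FPKM in KD and 181 ± 0.262 FPKM in CON (SD, n = 2), the spindle protein TACC3 at 33.7 ± 0.259 FPKM in KD and 21.9 ± 0.114 FPKM in CON, and the kinase MELK at 28.2 ± 0.557 FPKM in KD and 16.5 ± 0.632 FPKM in CON. Of 18 condensin and cohesin genes, 10 were higher (55.6%) and 5 lower (27.8%). The condensin subunits NCAPG2 (0.66) and NCAPG (0.37) and the cohesin protector CDCA5 (0.45) rose on the log2 scale. The 5 lower genes were the cohesin subunits RAD21 (-0.24), STAG1 (-0.50), SMC3 (-0.33), SMC1A (-0.19) and STAG2 (-0.14). Of 13 tested genes of G2 brakes and entry control, 6 were higher (46.2%) and 2 lower (15.4%). Among the higher were CDKN3 (0.70), PLK3 (1.32, from a low mean of 1.65 FPKM in CON) and BORA (0.57), the activator of PLK1 by Aurora A. The 2 lower were ENSA (-0.28) and the kinase WEE1 (-0.26). Of 17 other checkpoint and kinetochore genes, 4 were higher (23.5%) and 5 lower (29.4%), both near the shares of all tested genes, with ZWILCH (0.68) up and MAD1L1 (-0.77) and ZWINT (-0.41) down. Of 17 subunits and partners of the anaphase-promoting complex, 3 were higher (17.6%) and 6 lower (35.3%), with ANAPC16 (-0.78) and ANAPC15 (-0.63) lower and the E2 enzyme UBE2S (0.33) higher. Of 29 tested genes of G1/S and replication, 14 were higher (48.3%) and 8 lower (27.6%, near the share of all tested genes). Their median log2 change was 0.11, and SLBP (0.56), RRM2 (0.70) and ORC1 (0.58) rose. The 8 lower genes were CDK4 (-0.41), MCM5 (-0.38), MCM2 (-0.35), MCM7 (-0.31), GINS2 (-0.31), UNG (-0.26), RFC4 (-0.17) and MCM3 (-0.12). MCM4 (0.38) and MCM6 (0.11) were among the higher.

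The regulators listed with the DREAM and MuvB complexes, B-MYB and FOXM1 did not share 1 direction. Of 15 tested regulators, 3 were higher and 2 lower, so that 33.3% were called, against 58.6% of all tested genes. FOXM1, an activator of G2 and mitosis genes, stood at 53.6 ± 0.134 FPKM in KD and 54.7 ± 1.05 FPKM in CON and did not pass (log2 change -0.03). MYBL2, the B-MYB activator that binds MuvB, was lower, at 132 ± 1.96 FPKM in KD and 155 ± 1.502 FPKM in CON (log2 change -0.23). E2F4, a subunit of the repressive DREAM complex, was also lower, at 18.5 ± 0.347 FPKM in KD and 31.0 ± 0.139 FPKM in CON (SD, n = 2; log2 change -0.72). E2F7, TFDP2 and E2F5 were higher, by 0.66, 0.24 and 0.18 on the log2 scale. The MuvB subunits LIN9, LIN37, LIN52, LIN54 and RBBP4 and the pocket proteins RBL1 and RBL2 did not pass, with log2 changes between -0.12 (LIN52) and 0.17 (LIN54). TFDP1 and E2F8 did not pass either.

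**Figure D5:**
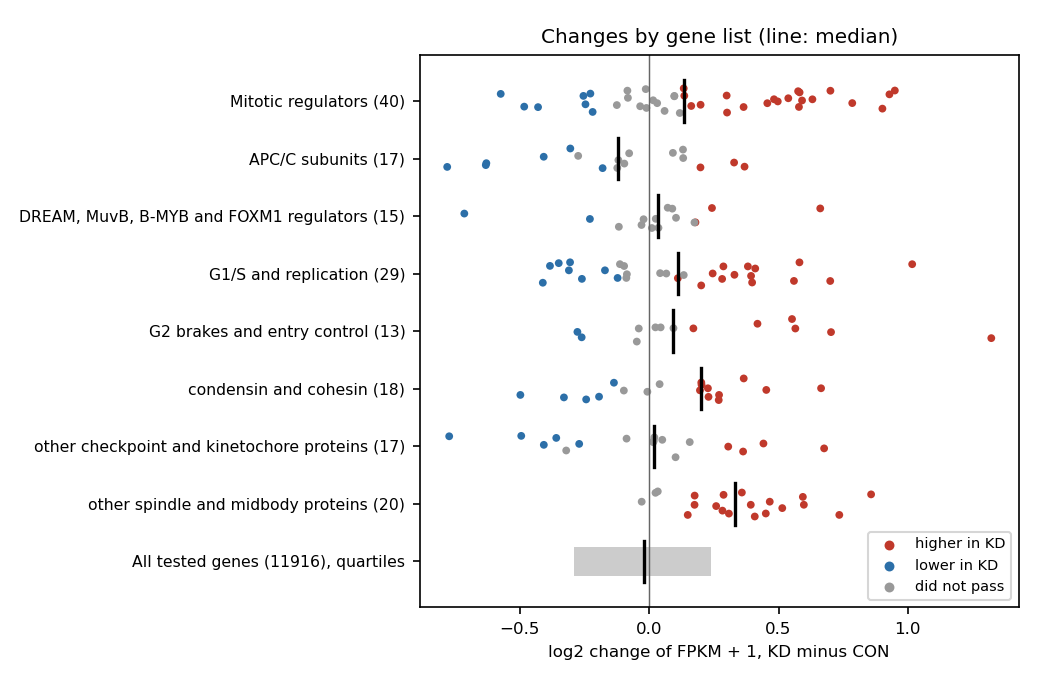
Log2 change of FPKM + 1, KD minus CON (x axis), for each tested gene of the 40 mitotic regulators and of 7 related lists (rows), with colours for genes higher, lower or not passing and a black line at each median; the bottom row shows the quartiles of all 11916 tested genes. The median of the mitotic regulators is 0.13, that of the other spindle and midbody proteins 0.33 and that of all tested genes -0.02.

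In the authors' deposited table, 23 of the 40 members have a q-value under 0.05 with a fold change above 1, 8 have one with a fold change below 1, and 9 do not reach it. SGO2, with a fold change of 2.06, is the sole member marked as significant in the authors' deposited table. That mark does not follow the q-value alone. NUSAP1, with a q-value of 2.13e-204 and a fold change of 1.89, is not marked. All 28 members called here have a q-value under 0.05 in the authors' deposited table, as do AURKA (0.0328), MAD2L1 (0.0343) and CCNB1 (0.0483), which did not pass here. The fold changes come from the same 4 libraries, so this is no separate evidence.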

How the data were processed

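The deposited table holds, per the file headers, FPKM for each sample beside the authors' comparison of KD with CON (linear fold change, log2, p-value, q-value). GRCh38, HISAT2, StringTie, fastp and edgeR are listed in the submitters' processing notes, with no versions and no roles. Annotation release and strand setting were not given in the sources used here, although the labels' protocols describe dUTP marking of the second strand. A count model does not apply to FPKM; whole reads could not be recovered from low values, where no more than 11 of 2530 genes shared a ratio between libraries, and depth is unknown.

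The 11916 of 29489 genes that reached 1 FPKM in 2 or more of the 4 libraries were fitted as log2(FPKM + 1) with limma 3.58.1 (R 4.3.3), group as the only term, a mean-variance trend, two-sided, adjusted by Benjamini-Hochberg over all tested genes at 0.05. Residual degrees of freedom were 2 and prior ones 2.85. Fold changes on this scale understate low genes. The script was tested on simulated data. The members and gene lists were chosen with earlier results of these data known. Every member is named, with all DREAM and MuvB regulators and up to 3 passing genes with the smallest adjusted p from each other list. The lower genes of the condensin and cohesin, G2 and G1/S lists are also named, with MCM4 and MCM6. Positions are from GENCODE 29 and promoters from RefSeq (GRCh38.p14). Alternatives changed the pseudocount, filter, scaling, variance model, libraries and pairing. 1 overlap of a member with another gene is not reported here.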

Additional observations from a re-analysis of the deposited data

How the results depend on the processing

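Over 16 alternatives, the sign of all 28 called members held, and 15 of the 21 higher and 4 of the 7 lower members kept their call in each alternative. Leaving out 1 library gave 18 to 21 higher and 5 to 7 lower members, medians of 0.131 to 0.16, and 4939 to 5732 called genes of all tested. With no filter on low values, 4 members were lower. The members' median was 0.0932 with all 6 columns, whose replicate 1 values are means divided by 1.2 in KD and by 1.1 in CON. The larger divisor in KD lowers KD against CON in that fit, where the median of all tested genes was -0.0568. The members' median was 0.173 under quantile scaling and 0.191 under scaling without MT- and the 10 most abundant genes. The cause of these shifts under scaling was not tested. With all 6 columns, 16 were higher, and TPX2 (limma adjusted p = 0.0519) was among those lost. Signs turned only in members that had not passed. UBE2C and PLK1 turned under median-ratio scaling (0.0198 and 0.0167), quantile scaling (0.0432 and 0.0205) and scaling without MT- and abundant genes (0.0459 and 0.0425), and AURKB under the last 2 (0.00555 and 0.0211). NUF2 and CCNA2 turned with all 6 columns (-0.00936 and -0.0261), and leaving out 1 library gave -0.0138 to 0.075 for NUF2, -0.00865 to 0.0387 for CCNA2 and -0.0358 to 0.00857 for PLK1. Same-numbered libraries did not deviate together (r = 0.005 across 11916 genes), which cannot show whether the number pairs libraries. With a replicate block, 21 members were higher, 8 were lower, the median was 0.134 and 6582 genes were called. The fit of PRC1 with the gene sharing its exons was chosen after seeing the data.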
